A study of Mus musculus with 6 samples.

Results

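miR-142 is a microRNA (miRNA) of blood cells, and both miRNAs cut from its hairpin, miR-142-5p from the 5′ side and miR-142-3p from the 3′ side, were followed here in fetal and adult B cell progenitors. The members, mmu-miR-142-3p and mmu-miR-142-5p, were taken by name from the gene names of the array: 2 of 567 mouse miRNAs, measured by 4 probes of 10 spots each. They were measured in pro-B cells (Hardy fractions B and C), which rearrange their immunoglobulin heavy chain genes, sorted from BALB/c mice whose labels record no genetic change. The fetal liver group held 3 sorts at day 16 of gestation, each pooled from the embryos of 1 litter (8 on average, sex not given), and the adult bone marrow group held 3 sorts, each pooled from femur and tibia marrow of 3 female mice. Each sort was measured on 1 one-colour Agilent array. Stage, tissue, sex of the animals and place on the slide cannot be told apart, since all 6 arrays lay on 1 slide and the tissues lay in different rows of it.

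A miRNA hairpin is cut by Dicer into a duplex of both arms, one of which is usually kept in an Argonaute protein while its partner is lost, although some hairpins give a lasting miRNA from each side. The kept strand finds messenger RNAs through its seed, bases 2 to 8 counted from the 5′ end, and lowers their translation and stability. miR-142 is transcribed in nearly all haematopoietic lineages and is scarce outside them, both its arms are used, and mice without it have defects in several lineages, lymphocytes among them.

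The mature sequences are shown because the arms differ in their seeds (in capitals) and so in the messages they can find; they are those of RefSeq on GRCm38.p6, where the gene is Mir142 and the arms carry the names miR-142a-5p and miR-142a-3p. The hairpin is shown with both arms in capitals, and the antisense miR-142b because it is read from the same place on the other strand.
miR-142a-5p: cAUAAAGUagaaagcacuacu
miR-142a-3p: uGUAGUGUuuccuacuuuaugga
Mir142 hairpin: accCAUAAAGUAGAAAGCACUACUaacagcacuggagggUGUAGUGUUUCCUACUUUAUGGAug
miR-142b: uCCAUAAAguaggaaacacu

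The hairpin of 64 bases lies on the plus strand at chr11:87756864-87756927 (GRCm38.p6). No protein-coding gene of the RefSeq table holds it: Supt4a ends 13241 bases before it and Tspoap1 starts 1267 bases after it. The 5p arm takes bases 4 to 24 of the hairpin and the 3p arm bases 40 to 62. Among 1679 mature mouse miRNAs named by RefSeq, 0 others carry the seed of either arm, so neither arm has a seed family there. All 20 bases of miR-142b, on the minus strand at chr11:87756906-87756925, are complementary to miR-142a-3p, and the array holds no probe under its name. The array gives its probe positions on mm9. The main miR-142-3p probe covers 23 bases (chr11:87570405-87570427) and its second probe 22 (chr11:87570406-87570427), and the main miR-142-5p probe covers 19 bases (chr11:87570371-87570389) and its second 18 (chr11:87570372-87570389). The 3′ ends of the arms lie 38 bases apart in both builds.

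miR-142-3p was well above background, by the scanner software's own mark, on all 6 arrays. Its scaled signal, in which each array is brought to a common 75th percentile, was 601, 494 and 948 in the fetal liver sorts, against 705, 327 and 508 in the bone marrow sorts. The highest value of all was fetal liver replicate 3 and the lowest bone marrow replicate 2, and the groups overlapped. On the log2 scale, on which all further values are given, the mean level was 9.36 ± 0.48 in fetal liver and 8.93 ± 0.56 in bone marrow (SD, n = 3 each). The difference of 0.42 ± 0.37 SE (95% interval -0.47 to 1.32) did not pass the threshold of 0.05 (limma, adjusted p = 0.463 by Benjamini-Hochberg), and the interval spans folds from 0.721 to 2.49. Of 135 miRNAs tested, 29 (21.5 percent) passed it, 14 higher and 15 lower in fetal liver, with a median difference of 0.25 over all tested. In sorted cells measured in bulk, fewer cells that hold a miRNA and less of it per cell cannot be told apart.

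miR-142-5p was the dimmer arm, and stood well above background on all bone marrow arrays but on 2 of 3 in fetal liver. Its scaled signal was 86.5, 30.5 and 92.0 in fetal liver replicates 1, 2 and 3, against 136, 55.5 and 82.8 in bone marrow replicates 1, 2 and 3. The low fetal value, on replicate 2, was the one not well above background, and the other two lay within the bone marrow range. The mean level was 5.96 ± 0.90 in fetal liver and 6.42 ± 0.65 in bone marrow (SD, n = 3 each), a difference of -0.46 ± 0.53 SE (95% interval -1.71 to 0.80; limma, Benjamini-Hochberg adjusted p = 0.540). Without fetal liver replicate 2 the difference was 0.01 ± 0.40 SE (limma, Benjamini-Hochberg adjusted p = 0.994), so its sign rests on that array. There the 10 spots of the probe had a mean of 16.8 ± 6.68 (SD, processed signal before scaling), the negative control spots an SD of 12.1, and the lowest probe signal well above background was 58.7.

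**Figure D1:**
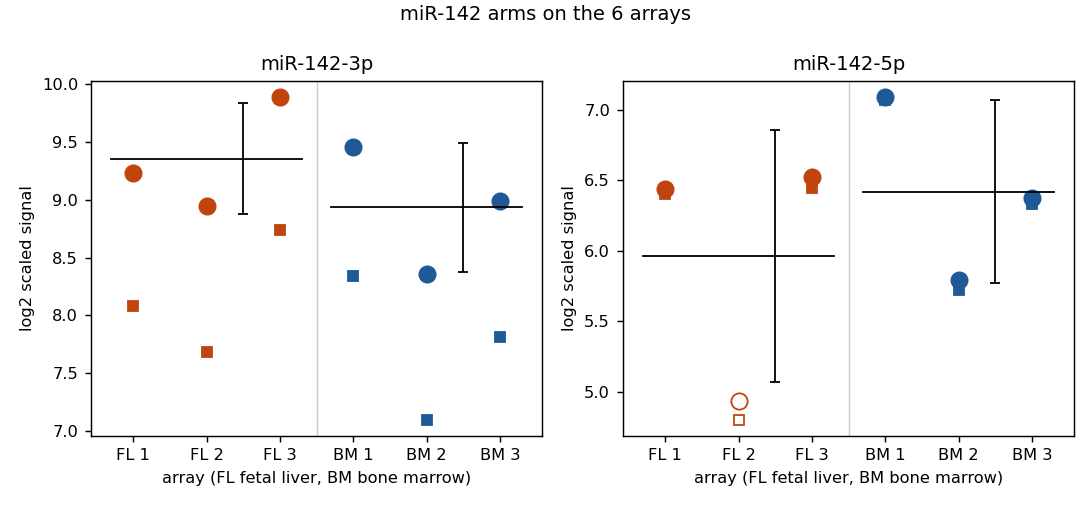
Log2 scaled signal of miR-142-3p (left) and miR-142-5p (right) on each array, with the main probe as circles, the second probe as squares and open symbols where a probe was not well above background; lines and bars give the mean ± SD of the main probe over 3 arrays. Fetal liver and bone marrow overlap for both arms, the second 3p probe lies below the main one on every array, and the 5p value of fetal liver replicate 2 is the lowest of its panel.

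Within an array the spots of a probe lay close together, with a coefficient of variation of 2.39 to 8.96 percent (median 4.59) over the 22 probe values well above background, and 0 spots were saturated. The second probes gave the same picture as the main ones. That of miR-142-3p had 8.17 ± 0.53 in fetal liver and 7.75 ± 0.62 in bone marrow (SD, n = 3 each), a difference of 0.42. That of miR-142-5p had 5.88 ± 0.94 in fetal liver and 6.37 ± 0.67 in bone marrow, a difference of -0.49. Both probes of an arm thus gave nearly the same difference between the tissues. They cover nearly the same bases and are not independent, and neither 5p probe was well above background on fetal liver replicate 2.

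The brightness rank of an arm, counted among all miRNAs well above background on the same array, places its probe and not its number of molecules, since probes differ in how strongly they bind. miR-142-3p ranked 15 of 146, 18 of 56 and 9 of 126 on fetal liver arrays 1, 2 and 3, against 15 of 160, 24 of 160 and 17 of 137 on bone marrow arrays 1, 2 and 3. Among the 53 miRNAs well above background on every array, which takes out the low number of detected miRNAs on fetal liver replicate 2, it held ranks 15, 18 and 9 in fetal liver and 15, 21 and 17 in bone marrow. Its ranks in the tissues overlapped. miR-142-5p ranked 57 of 146 and 46 of 126 on fetal liver arrays 1 and 3, had no rank on array 2, and ranked 42 of 160, 60 of 160 and 52 of 137 in bone marrow. By mean level among tested miRNAs, the neighbours of miR-142-3p in fetal liver were miR-20b above (9.36 ± 0.37) and miR-451 below (9.16 ± 0.36), and in bone marrow let-7g above (9.11 ± 0.12) and let-7c below (8.82 ± 0.15). The neighbours of miR-142-5p were miR-466e-3p above (5.99 ± 0.20) and miR-130b* below (5.95 ± 0.76) in fetal liver, and miR-690 above (6.50 ± 0.11) and miR-103 below (6.38 ± 0.07) in bone marrow. None of these neighbours lay beyond 1 SD of the arm it stands beside.

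**Figure D2:**
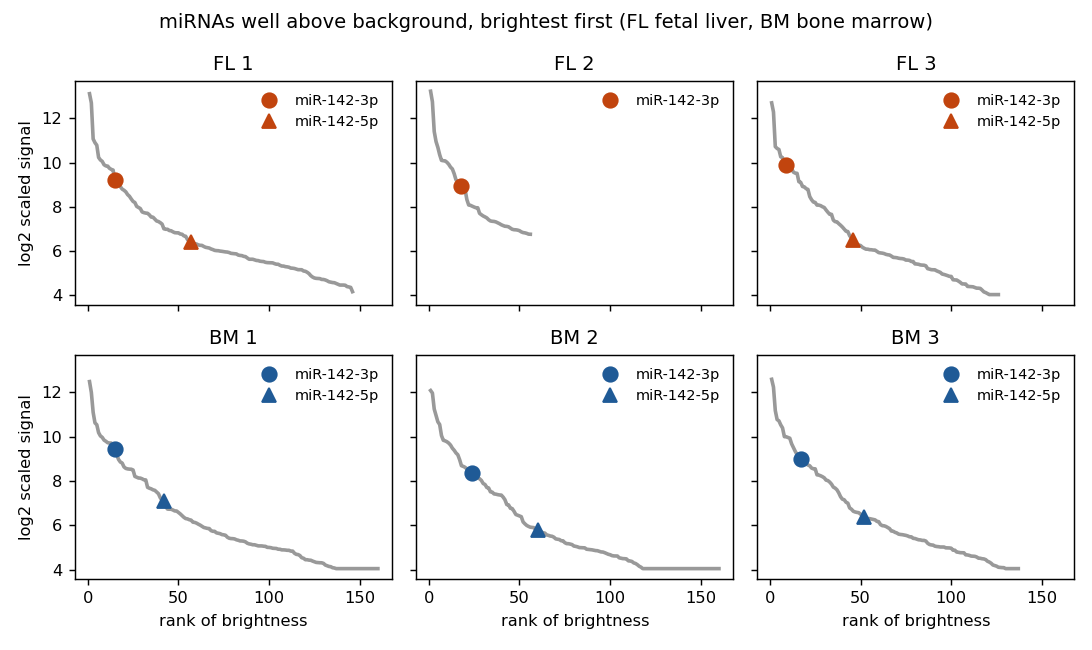
Log2 scaled signal of every miRNA well above background against its rank on that array (FL fetal liver, above; BM bone marrow, below), with miR-142-3p as a circle and miR-142-5p as a triangle. miR-142-3p lies on the steep left part of each curve, at ranks 9 to 24, and miR-142-5p at ranks 42 to 60 on the 5 arrays where it could be ranked.

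The arms are cut from the same hairpin, and a scale factor of the array cancels in their ratio. The log2 level of miR-142-3p minus that of miR-142-5p was 2.80, 4.02 and 3.37 in fetal liver replicates 1, 2 and 3, against 2.37, 2.56 and 2.62 in bone marrow replicates 1, 2 and 3. All fetal liver values lay above all bone marrow values. The mean was 3.39 ± 0.61 in fetal liver and 2.52 ± 0.13 in bone marrow (SD, n = 3 each), a difference of 0.88 (two-sided exact permutation p = 0.1; 3 arrays against 3 can give no smaller one). The size of the ratio mixes the amounts with the binding of the probes, and a difference between the tissues does not tell which arm differs.

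On fetal liver replicate 2, with miR-142-5p not well above background, the ratio is known only to be at least 2.22, taking miR-142-5p at the lowest signal well above background there, and that bound is below the bone marrow values. Without this array the ratio was 3.08 ± 0.40 in fetal liver (SD, n = 2) and 2.52 ± 0.13 in bone marrow (SD, n = 3), a difference of 0.56 without overlap (exact permutation p = 0.1, again the smallest possible). With fetal liver replicate 2 included, the groups stayed apart with each pairing of a 3p with a 5p probe, with differences of 0.87 to 0.91. Neither 5p probe was well above background on that array, so these differences rest partly on a signal not measured there. With normexp background correction at an offset of 50, which raises dim signals toward that offset, the ratios overlapped (1.95, 1.82 and 2.76 in fetal liver, against 1.99, 1.97 and 1.25 in bone marrow), and the difference was 0.43 (exact permutation p = 0.6).

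**Figure D3:**
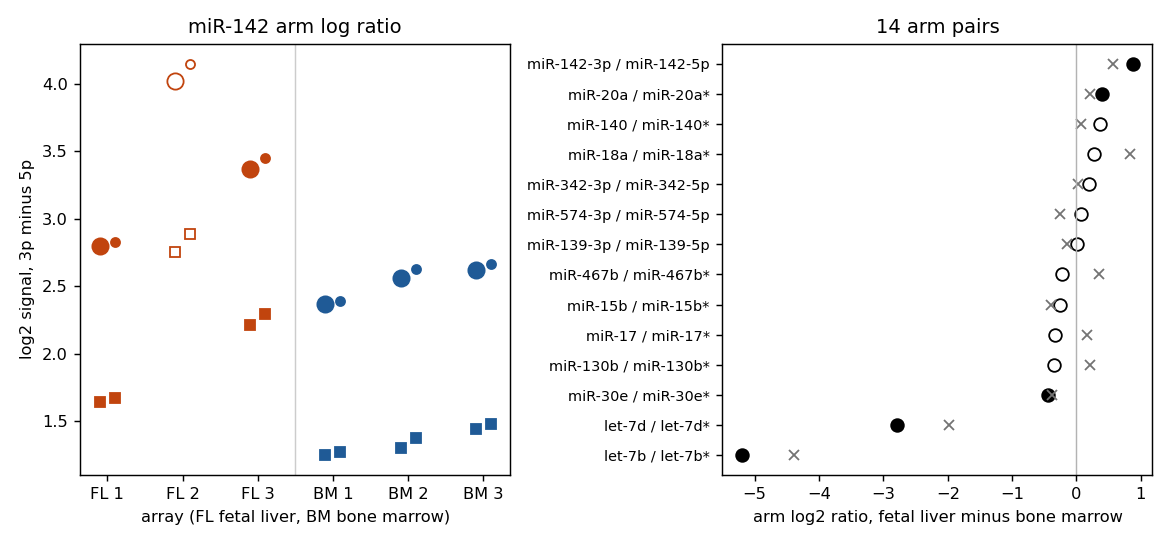
Left, log2 signal of miR-142-3p minus miR-142-5p on each array for the 4 probe pairings (large circles the main probes, small circles the main 3p with the second 5p probe, squares the second 3p probe; open where miR-142-5p was not well above background). Right, fetal liver minus bone marrow of the arm log ratio for 14 hairpins, with filled circles where the 3 arrays of each tissue do not overlap and crosses for the value without fetal liver replicate 2; miR-142 is at 0.88 with that array, where its 5p arm was not well above background, and at 0.56 without it.

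Both arms were tested for 14 hairpins, but both were well above background on all 3 fetal liver arrays for 2 of 14 pairs only, miR-18a with miR-18a* and miR-130b with miR-130b*. For miR-142 and 10 other pairs this held on 2 fetal liver arrays and for let-7b with let-7b* on 1, so the fetal liver values include signals not above background and the pairs are given without an order. As computed, 5 of 14 pairs (35.7 percent) had ratios that did not overlap between the tissues, miR-142 among them, and the other 13 pairs had a median difference of -0.23 and a range of -5.20 to 0.39. On the arrays without fetal liver replicate 2, miR-142 had 0.56 and miR-18a with miR-18a* 0.83. miR-342, another hairpin abundant in lymphoid cells, had 0.02 on these arrays, and 0.20 with overlap on all 6.

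miR-142 is often taken as a mark of blood cells in mixed tissue, so its steadiness between sorts was set beside that of 8 miRNAs commonly used to scale such measurements, of which 7 were tested here. The SD of miR-142-3p was 0.48 over the fetal liver arrays, rank 69 of 135 from the most to the least variable miRNA, and 0.56 over the bone marrow arrays, rank 13. The SD of miR-142-5p was 0.90 in fetal liver (rank 26) and 0.65 in bone marrow (rank 8). The median over all tested miRNAs was 0.49 in fetal liver and 0.16 in bone marrow, and the 7 candidates had SDs of 0.12 to 0.30 in fetal liver and 0.05 to 0.25 in bone marrow. miR-16, an abundant miRNA of many tissues, was the steadiest of them in bone marrow, with 9.63 ± 0.12 in fetal liver and 9.67 ± 0.05 in bone marrow (SD, n = 3 each). With this scaling and all 6 arrays, the SD of both arms was above that of each of the 7 in each tissue. Without fetal liver replicate 2 the fetal liver SD was 0.47 for miR-142-3p and 0.063 for miR-142-5p (n = 2), so the high value of miR-142-5p there rests on the array where it was not well above background.

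The rank in bone marrow depended on the scaling. Before scaling, the main miR-142-3p probe gave 785, 533 and 513 (processed signal) on bone marrow replicates 1, 2 and 3, and replicate 2 had the smallest scale factor of the 6 arrays, 0.614. Without scaling the SD of miR-142-3p in bone marrow was 0.34 (rank 60 of 135, median of all tested 0.33), and with scaling over all mouse probes 0.25 (rank 97, median 0.33). Quantile normalisation gave 0.50 (rank 10) and, in the authors' deposited table, the SD was 0.46 (rank 3). For miR-142-5p the bone marrow SD was 0.47 (rank 19) without scaling, 0.33 (rank 66) over all mouse probes, 0.49 (rank 12) after quantile normalisation and 0.36 (rank 7) in the deposited values. In fetal liver the SD of miR-142-3p ran from 0.45 to 1.02 over these 4 scalings, at ranks 15 to 69.

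**Figure D4:**
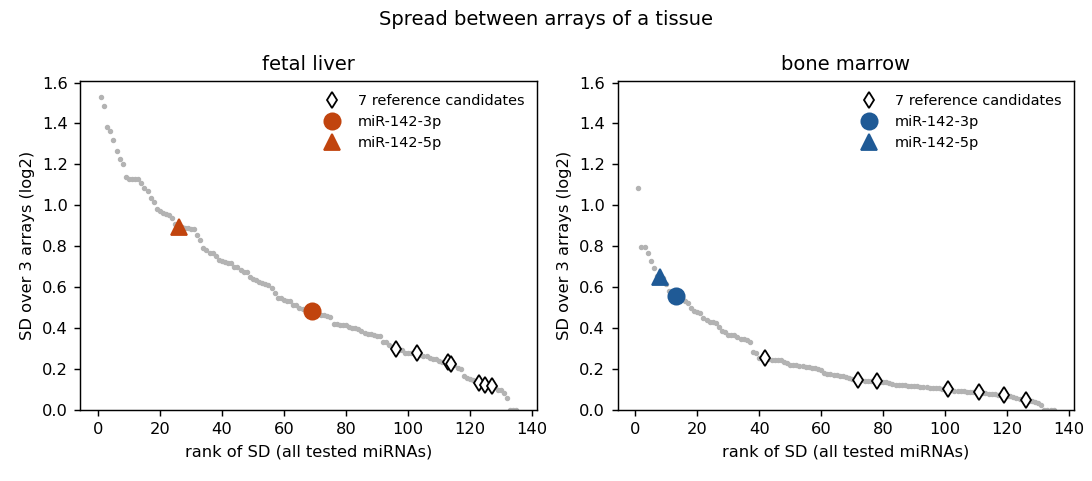
SD over the 3 arrays of a tissue for each of 135 tested miRNAs, ordered from the most to the least variable, in fetal liver (left) and bone marrow (right). Both arms of miR-142 (coloured) lie above all 7 reference candidates (diamonds) in both tissues, with 0.48 and 0.90 in fetal liver and 0.56 and 0.65 in bone marrow.

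Of the 7 candidates 1 passed the test between the tissues, miR-103 with 7.38 ± 0.28 in fetal liver and 6.38 ± 0.07 in bone marrow (SD, n = 3 each; adjusted p 0.0173 by limma and Benjamini-Hochberg), and their median difference was 0.21, against 0.25 over all 135 tested. Each arm was compared with each candidate, 14 comparisons in all, as the level of the arm minus that of the candidate on the same array. For miR-142-3p the differences between tissues ran from -0.57 to 0.77 and for miR-142-5p from -1.45 to -0.11. Exact permutation p-values lay between 0.1, the smallest possible, and 0.9, and Benjamini-Hochberg adjusted values between 0.70 and 0.90, and in 1 of 14 comparisons, miR-142-5p against miR-103, the groups did not overlap.

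When every other miRNA was expressed relative to miR-142-3p on the same array, fewer miRNAs passed. Of 134 miRNAs, 15 (11.2 percent) were called by limma at a Benjamini-Hochberg adjusted p under 0.05, 3 higher and 12 lower in fetal liver, and all 15 were among the 29 called with the common scaling. The 14 lost calls were 11 higher and 3 lower ones. Relative to miR-142-5p 11 (8.21 percent) were called, 6 higher and 5 lower, again all among the 29. This reference was not well above background on fetal liver replicate 2, so the differences from it rest partly on a signal that was not measured there. Without that array 16 were called, 9 higher and 7 lower, and the median difference of all miRNAs was 0.24, against 0.71 with it. The median standard error of a difference was 0.58 relative to miR-142-3p and 0.74 relative to miR-142-5p, against 0.30 with the common scaling. Since every miRNA is measured against the same reference, an error of the reference enters all of them at once. Each of the 29 had the same standard error relative to miR-142-5p, 0.74, as limma pooled the variance over miRNAs. The p-values relative to an arm do not allow for the shared error and can be too small. The calls relative to an arm are therefore a description.

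On all 6 arrays 8 miRNAs were called with both references, 5 lower and 3 higher in fetal liver. The lower ones were let-7b, let-7c, let-7d and let-7i, guides of the family whose maturation Lin28b blocks, and miR-146a, which restrains NF-kB signalling. In fetal liver miR-146a stood well above background on 1 array of 3, and let-7b only on replicate 1. let-7c and let-7i were not well above background on fetal liver replicate 2. These miRNAs, miR-146a, let-7b, let-7c and let-7i, entered the test through their bone marrow level. By contrast, let-7d was well above background on all 6 arrays. It differed by -3.17 ± 0.57 SE relative to miR-142-3p and by -2.29 ± 0.74 SE relative to miR-142-5p. Its adjusted p by limma and Benjamini-Hochberg was 5.26e-05 and 0.0315, against 5.82e-04 with the common scaling. The higher ones were miR-296-5p, miR-714 and the erythroid miR-451, the last by 1.99 ± 0.56 SE relative to miR-142-3p and 2.86 ± 0.74 SE relative to miR-142-5p (adjusted p 0.0133 and 0.00348, limma with the same adjustment). Of these, miR-296-5p was not well above background on fetal liver replicate 2, and lay at the floor on bone marrow replicates 2 and 3. The number and direction of the calls relative to each arm moved with single arrays. Relative to miR-142-3p there were 16 higher and 14 lower without fetal liver replicate 3, 1 higher and 5 lower without bone marrow replicate 2, 5 calls without bone marrow replicate 3, all lower, and 5 with normexp, all lower. Relative to miR-142-5p there were 4 higher and 3 lower without fetal liver replicate 1, 22 higher and 5 lower without replicate 3, 1 higher and 5 lower without bone marrow replicate 1, 4 higher and 2 lower without replicate 2, and 1 call, a lower one, without replicate 3. With normexp it was 2 higher and 8 lower.

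The miRNAs most like each arm were taken as the 3 with the highest Pearson r of the log2 level over the 6 arrays, a description over arrays that share their scaling. For miR-142-3p these were miR-27b (r = 0.96), miR-106b (0.94) and miR-24 (0.93), with a median r of 0.05 over the other 134 tested miRNAs. For miR-142-5p these were miR-16 (0.94), miR-140 (0.91) and miR-15a (0.91), with a median of 0.09. A high r does not mean changes of like size. The SD over the 6 arrays was 0.05 for miR-27b and 0.08 for miR-16, against 0.52 for miR-142-3p and 0.74 for miR-142-5p. miR-140 was well above background on 2 fetal liver arrays. These lists shared no miRNA, and the arms had r = 0.56 with each other, which placed miR-142-5p at rank 30 of 134 in the list of miR-142-3p. Of these 6 neighbours, miR-15a alone had groups that did not overlap (8.03, 7.55 and 8.08 in fetal liver, against 8.53, 8.10 and 8.23 in bone marrow), which was the case for 55 of 135 tested miRNAs (40.7 percent), and its difference of -0.40 ± 0.24 SE did not pass (limma, Benjamini-Hochberg adjusted p = 0.323).

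Other miRNAs of blood cells were set beside miR-142; whether their differences differ from its own was not tested. Of 8 tested, 1 rose (miR-451) and 3 fell (miR-146a, miR-223 and miR-181a) in fetal liver by limma with Benjamini-Hochberg adjustment. Over all tested, 10.4 percent were higher and 11.1 percent lower. In fetal liver miR-146a was well above background on 1 of 3 arrays, and miR-223 and miR-181a on 2 of 3. The median difference of the 8 was -0.39, against 0.25 over all. miR-342-3p had 8.77 ± 0.49 in fetal liver and 7.79 ± 0.14 in bone marrow (SD, n = 3 each), a difference of 0.98 ± 0.29 SE that missed the threshold (adjusted p 0.0515, limma and Benjamini-Hochberg). miR-155, a regulator of lymphocyte activation, differed by 0.28 ± 0.21 SE and miR-150, which targets Myb, by -0.92 ± 0.57 SE (adjusted p 0.377 and 0.325, by limma with the Benjamini-Hochberg method).

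As miR-142 is expressed in most blood lineages, lists of miRNAs linked to other cell types and to lymphoid cells were set beside it. The summed signals of the erythroid, myeloid and endothelial or progenitor lists did not overlap between the tissues. The summed scaled signal of 3 erythroid miRNAs, of which 1 was tested, was 524 to 779 in fetal liver and 121 to 184 in bone marrow. That of 4 myeloid miRNAs, of which 2 were tested, was 116 to 173 in fetal liver and 424 to 757 in bone marrow. That of 5 endothelial or progenitor miRNAs, of which 4 were tested and 2 fell (miR-125b-5p and miR-99a, limma with Benjamini-Hochberg adjustment), was 96.8 to 114 in fetal liver and 166 to 198 in bone marrow. Of these, miR-125b-5p, miR-99a and miR-10a were well above background on 0 fetal liver arrays and entered the test through bone marrow. As 5 miRNAs at the floor sum to 82.3, most of this fetal liver sum is floor. The summed signal of 3 T lineage and lymphoid miRNAs, all tested, of which miR-181a fell, was 251 to 417 in fetal liver and 375 to 494 in bone marrow. All 5 stromal miRNAs lay at the floor of 16.5 on every array, and 3 hepatocyte miRNAs summed to 49.4 to 64.7 in fetal liver and 49.4 in bone marrow, with 2 of 3 at the floor on every array. The remaining one, miR-122, was well above background on fetal liver replicate 1 only, at 4.99 on the log2 scale. The part of other cells in the level of miR-142 was not tested.

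**Figure D5:**
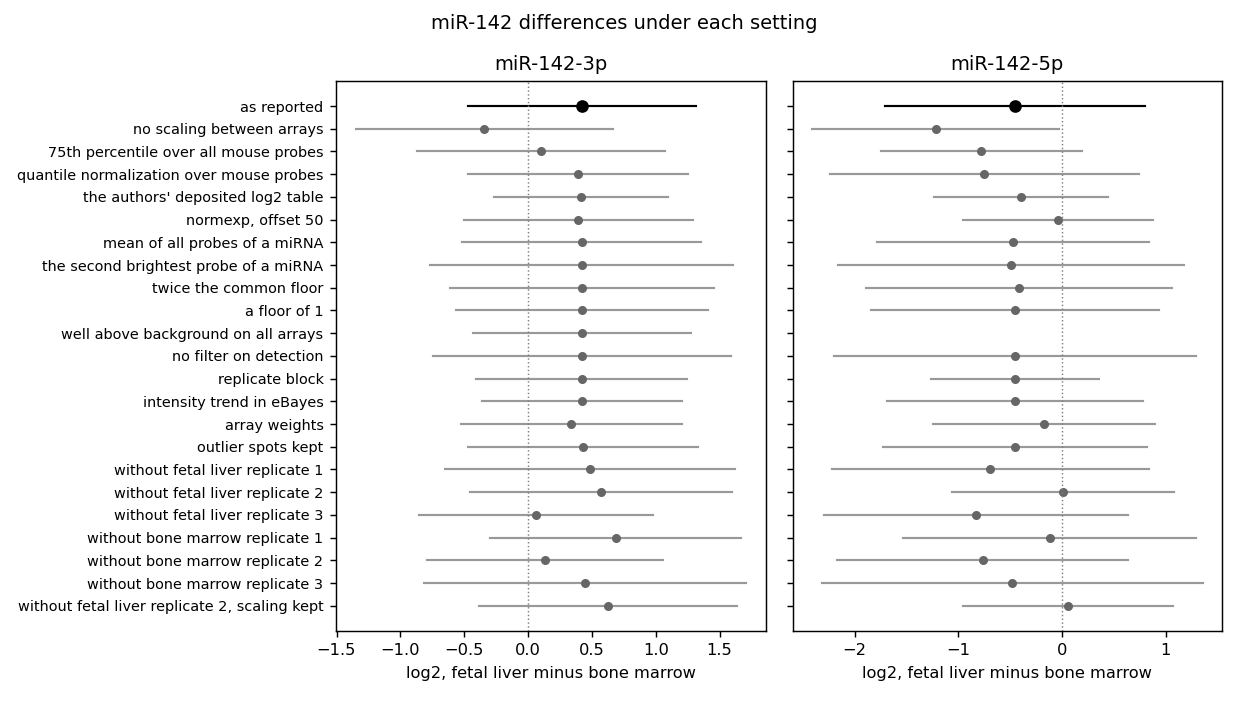
Fetal liver minus bone marrow of each arm (log2, points, with the 95% interval from limma as lines) as reported and under each other setting; miR-142-5p has no value where only miRNAs well above background on all arrays were kept. The points of miR-142-3p lie between -0.34 and 0.69 and those of miR-142-5p between -1.22 and 0.06.

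Under the other scalings the difference of miR-142-3p was 0.10 over all mouse probes, 0.39 after quantile normalisation and 0.42 in the authors' deposited values, and -0.34 without scaling. Without scaling the median of all tested miRNAs moved by -0.75, nearly as much as miR-142-3p itself. miR-142-3p stood 0.16 above that median, against 0.17 above it with the common scaling. A scale factor shifts all miRNAs of an array alike, so it can change an arm's distance from the median only through the floor. The likeness of these distances is therefore no sign of a steady result. miR-142-5p stood below the median, by -0.71 with the common scaling, -0.72 both without scaling and over all mouse probes, -0.78 after quantile normalisation and -0.42 in the deposited values. No setting called either arm, with limma's Benjamini-Hochberg adjusted p-values from 0.329 to 0.953 for miR-142-3p and from 0.132 to 0.994 for miR-142-5p. The smallest unadjusted p was 0.136 for miR-142-3p and 0.0458 for miR-142-5p, that value being the one without scaling.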

How the data were processed

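Per the labels' protocols, 100 ng of TRIzol-isolated total RNA from each sort was treated with phosphatase and joined to Cy3 by a ligase. The scanner files, per the file headers, come from 1 scan read by Agilent Feature Extraction 9.5.3.1; their deposited spot intensity is on a linear scale, background-subtracted within the array and not normalised between arrays. Other deposited spot values are flags of 0 or 1, per the file headers. A log2 table from the authors, deposited in 2 identical copies, has columns of 1 shared distribution (4.66 to 15.79, median 5.24) and served as an alternative; how its background was corrected is not stated in the sources used here.

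Spots of a probe were averaged without outliers. A probe was well above background on an array where over 50 percent of its spots were, and a miRNA where any of its probes was. Arrays were scaled to their mean 75th percentile over 82 probes well above background on all 6 arrays, given a floor of 16.5 (4.04 on the log2 scale) and put on the log2 scale. Scale factors ran from 0.614 to 1.81, and the share of mouse spots well above background was 7.02 percent for fetal liver replicate 2 and 18.4 to 23.7 percent elsewhere. Each miRNA was read from its brightest probe. The 135 miRNAs well above background on all 3 arrays of a tissue were tested with limma 3.58.1 (R 4.3.3) and Benjamini-Hochberg adjustment over all of them. On 20 simulated data sets of 135 miRNAs, of which 20 differed by 2 on the log2 scale, 100 percent of these were recovered and 0.565 percent of the others were called. The simulated noise was independent, with the same SD for all miRNAs and arrays and no floor. It checks the code, and its rates do not carry over to the data. Arm ratios were compared with two-sided exact permutation tests. The number of arrays limits the precision.

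Named were both arms, the 3 miRNAs most correlated with each, their neighbours in rank, and the tested members of the lists of blood-cell miRNAs and of reference candidates. The arm pairs named beside miR-142 and the miRNAs called relative to both arms fall outside that rule and were chosen after their values were seen. The members, lists and pairs were chosen with earlier results of these data known. Figures were drawn with matplotlib 3.10.9. The alternatives covered scaling, background correction, probe, floor and filter rules, variance models, a replicate block and leaving out each array.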

Additional observations from a re-analysis of the deposited data

How the results depend on the processing

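miR-142-3p kept its sign in 21 of 22 alternatives and turned without scaling (-0.34), where the median of all tested miRNAs moved by -0.75. The distance of miR-142-3p above that median was 0.16, against 0.17, but scale factors can change it only through the floor. With 1 array left out the difference of miR-142-3p ran from 0.06 to 0.69. miR-142-5p kept its sign in 19 of 21, turned without fetal liver replicate 2 (0.0088), also with scaling, floor and tested miRNAs kept (0.061, chosen after seeing the data), and ran from -0.83 to 0.0088 with 1 array left out. It has no value among miRNAs well above background on all 6 arrays. Other filters, the replicate block and an intensity trend in limma cannot move these differences, and other floors cannot move that of miR-142-3p. The counts of kept signs thus include settings whose outcome was fixed in advance. The arm ratio was higher in fetal liver in 12 of 12 alternatives, by 0.43 to 1.18, and by 0.56 to 1.18 with 1 array left out, which allows no p under 0.1. With normexp the tissues overlapped (exact permutation p = 0.6), and without any 1 bone marrow array the exact permutation p was 0.2. Only the setting without fetal liver replicate 2 leaves out the array where miR-142-5p was not well above background. Over all tested miRNAs the 29 calls became 9 with normexp, 13 on second probes, 18 where only miRNAs well above background everywhere were kept and 12 without a filter, and 12 to 40 with 1 array left out. The share of higher calls, 48.3 percent, was 16.7 without scaling, 28.6 with all mouse probes, 34.6 after quantile normalisation and 37.9 with the authors' table, but 72.2 where only miRNAs well above background everywhere were kept, 60.0 without fetal liver replicate 3 and 55.3 with array weights. The 15 calls relative to miR-142-3p became 5 with normexp and 5 to 30 with 1 array left out, and the 11 relative to miR-142-5p became 1 to 27. The deviations of same-numbered sorts had r = 0.17, -0.12 and -0.24, too few values to decide whether the numbers pair the sorts. With a replicate block the differences kept their size, 0.42 and -0.46, with adjusted p of 0.446 and 0.400 (limma, Benjamini-Hochberg). The SE of miR-142-5p was then 0.34, against 0.53 without the block. With the block 23 miRNAs were called, and 15 and 16 relative to the 3p and 5p arms. The low signal over background of fetal liver replicate 2 limits what can be said of miR-142-5p. Causes were not tested.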
